A study of Mus musculus with 6 samples.

Results

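The genes described here build the respiratory chain of the mitochondrion without being part of it. They are assembly factors of complexes I, II, III and IV and of the ATP synthase, together with the enzymes and helper proteins of coenzyme Q synthesis. Members were chosen by gene symbol alone: the Ndufaf, Sdhaf, Uqcc, Sco and Atpaf families, Cox10 to Cox19, Coa3 to Coa7, Coq2 to Coq9, and a short list of further names (Surf1, Bcs1l, Ttc19, Lyrm7, Foxred1, Acad9, Nubpl, Ecsit, Timmdc1, Tmem126a, Tmem126b, Tmem70, Pet100 and Taco1). Of 55 such names, 52 had a probe set among the 21212 on the arrays, and Ndufaf8, Pet100 and Sco2 were not analysed here. By target, 14 members serve complex I, 4 complex II, 6 complex III, 16 complex IV, 3 the ATP synthase and 9 coenzyme Q.

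The arrays compared muscle of C26 mice, which carried C26 tumors (a mouse adenocarcinoma that causes wasting), with muscle of control mice inoculated with PBS and matrigel but no tumor cells. All were male CDF1 mice, 8 weeks old at the start, and gastrocnemius and plantaris muscles were taken 25 days after inoculation. RNA of 2 to 3 muscles was pooled for each array, giving 3 C26 pools from 4 mice and 3 control pools from 3 mice. Pools of one group may therefore share mice, and each p-value below measures only the spread between pools. The labels number the C26 pools 1, 3 and 4 and the control pools 1, 2 and 3, and values are listed in that order.

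Electrons from food enter the chain at complexes I and II, pass through the lipid carrier coenzyme Q to complex III and on to complex IV, and the proton gradient made on the way drives the ATP synthase. The complexes are too large to form unaided: assembly factors hold half-built modules, insert iron-sulfur clusters, heme and copper, modify single subunits and then leave. Loss of many of these factors causes inherited disease in humans, often with muscle weakness, because muscle depends on this supply of ATP.

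Most assembly genes were lower in C26 muscle. A gene is said to have fallen or risen where limma's adjusted p was at most 0.05 (Benjamini-Hochberg over all 21212 probe sets) and the change was at least 1.5-fold, that is 0.585 on the log2 scale. By this rule 10 of 52 members fell (19.2%, against 4.95% of all probe sets) and 0 rose (5.94% of all probe sets rose). The genes that fell were Coq7, Taco1, Coa5, Ndufaf5, Cox11, Coa7, Ndufaf1, Bcs1l, Tmem126a and Ndufaf7. At adjusted p alone, 29 members were lower (55.8%, against 15.8% of all probe sets) and 4 were higher (14.3% of all probe sets). Among the 14891 probe sets above background in a group, 6.86% fell, 20.6% were lower and 19.9% higher at adjusted p. No member rose by the methods' t-test either. At an unadjusted p of at most 0.05, 6 of 52 members were higher by limma, beside 3785 of all 21212 probe sets. By the methods' t-test 5 members were higher at that unadjusted p.

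The shift was seen in every pool. Relative to each gene's control mean, the median member stood at −0.32, −0.31 and −0.24 log2 in the C26 pools, against 0.02, 0.00 and −0.02 in the control pools. Over the 52 members the median change was −0.30 log2, beside −0.05 over all probe sets. 44 members were below 0. All C26 pools lay under all control pools in 35 members (24.6% of all probe sets), and above them in 7 (19.3% of all probe sets). In bulk muscle, fewer cells of a type and less RNA per cell cannot be told apart. Of the members, 51 were above the level of genes that muscle is not thought to use. The exception was Lyrm7, which was under it in both groups.

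**Figure D1:**
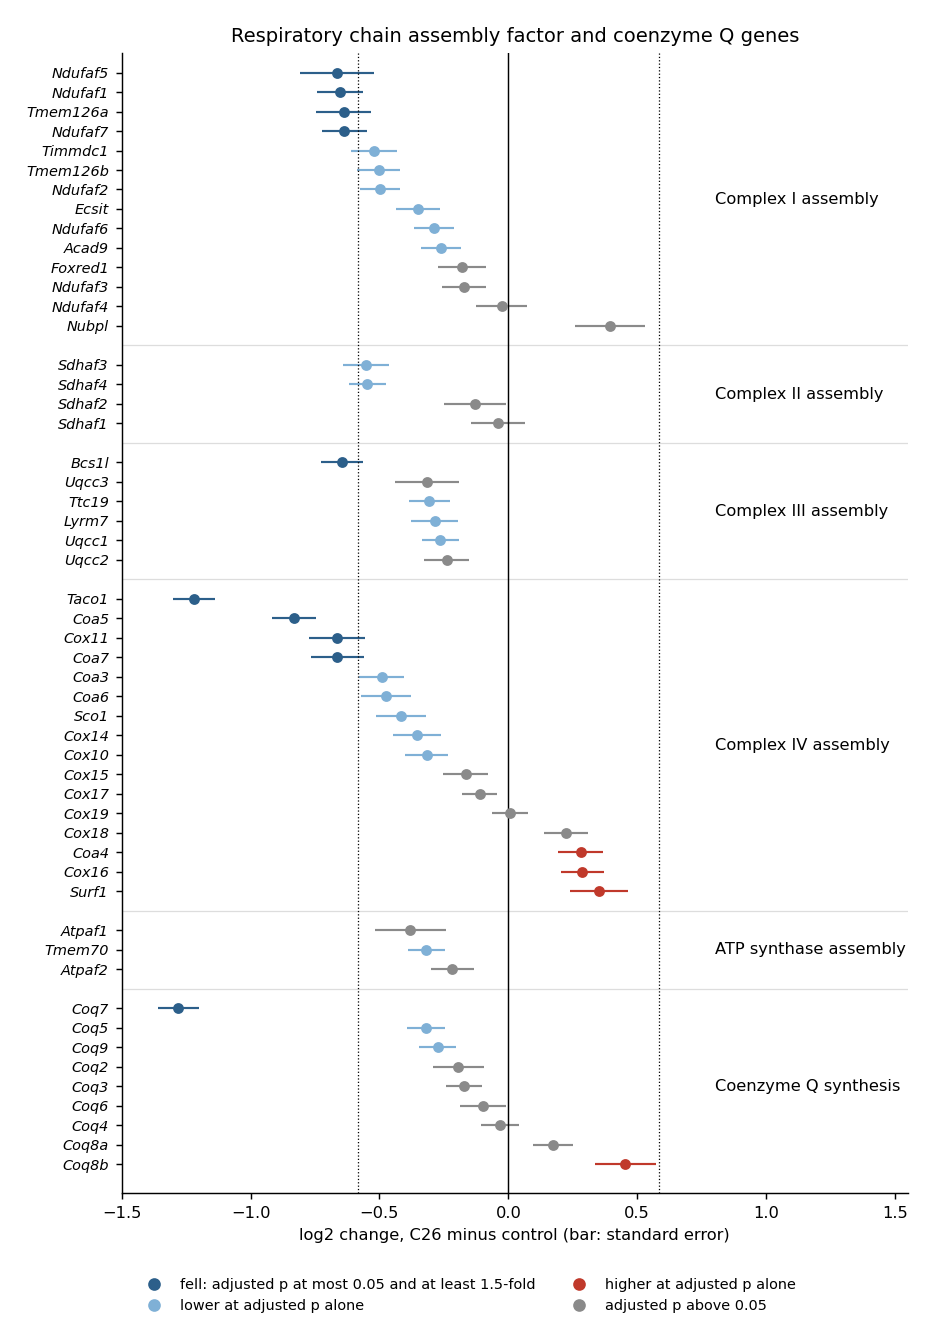
Log2 change (x axis, C26 minus control) of each of the 52 genes, grouped by the complex they serve, with the standard error as a bar and dotted lines at 1.5-fold. The 10 genes in dark blue fell, 19 more in light blue were lower at adjusted p alone, and the 4 in red were higher at adjusted p alone.

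Complex I, NADH dehydrogenase, takes up electrons from NADH. Of its 14 members 4 fell, 10 were lower at adjusted p, 0 were higher, and the median change was −0.42 log2. Ndufaf5, which hydroxylates an arginine of the core subunit Ndufs7, had 5.79, 5.20 and 5.51 log2 in the C26 pools, against 6.02, 6.22 and 6.26 in the control pools. The groups did not overlap, but C26 pool 3 lay well under the other C26 pools. The change was −0.67 ± 0.14 log2 (SE, n = 3 pools each, here and below; limma adjusted p = 0.00829), and without C26 pool 3 it was −0.52, short of the fold minimum.

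Ndufaf7, a methyltransferase of complex I assembly, had 6.22, 6.04 and 6.22 log2 in C26 pools, against 6.71, 6.87 and 6.81 in control pools. It fell by 0.64 ± 0.09 log2 (limma adjusted p = 0.000774), and without C26 pool 3 the change was −0.576, just short of the fold minimum. Ndufaf5 and Ndufaf7 both fell, with C26 pool 3 lowest for each.

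The factors of the mitochondrial complex I intermediate assembly complex, MCIA, hold the growing membrane arm. Its genes in the list are Ndufaf1, Ecsit, Acad9, Tmem126b and Timmdc1, and all 5 were lower at adjusted p. The symbol rule leaves out Tmem186, also of MCIA, which was at 0.20 log2 and not called (limma adjusted p = 0.0795). All C26 pools of Tmem186 lay above all control pools. Ndufaf1 had 6.96, 7.07 and 6.96 log2 in C26 pools, against 7.78, 7.64 and 7.53 in control pools. Its C26 values were nearly level, and the change was −0.65 ± 0.09 log2 (limma adjusted p = 0.000733). Timmdc1 at −0.52 and Tmem126b at −0.50 log2 stood just outside the fold minimum (limma adjusted p = 0.00245 and 0.00209), and Timmdc1 passed it without C26 pool 1 at −0.60. Ecsit, which also takes part in Toll-like receptor signaling, was at −0.35, and Acad9, a relative of the acyl-CoA dehydrogenases, at −0.26 log2 (limma adjusted p = 0.0135 and 0.0347). Acad9 kept its call in only 1 of the 6 fits that left out an array, with adjusted p up to 0.114.

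Tmem126a, a membrane protein of the distal arm and a paralog of Tmem126b, had 7.99, 7.70 and 7.63 log2 in C26 pools, against 8.50, 8.35 and 8.39 in control pools. It fell by 0.64 ± 0.11 log2 (limma adjusted p = 0.00221), and without C26 pool 4 the change was −0.57, short of the fold minimum. Both paralogs were lower. The gap between them, Tmem126a minus Tmem126b, was 1.48 ± 0.26 log2 in C26 pools and 1.61 ± 0.07 in control pools (SD, n = 3 each), a difference of −0.14 (exact permutation test, two-sided, p = 0.50, adjusted over 3 pairs 0.50), where 3 against 3 pools cannot give a p under 0.1.

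Among the other complex I factors, Ndufaf2, a paralog of the subunit Ndufa12, was at −0.50 log2, just outside the fold minimum (limma adjusted p = 0.00154). Ndufaf6 was at −0.29 log2 (limma adjusted p = 0.0227), though 4 of the 6 fits without an array put it above the threshold. Ndufaf3 and Ndufaf4, which act as a pair on the arm that binds coenzyme Q, did not pass at −0.17 and −0.03 log2, nor did the oxidoreductase Foxred1 at −0.18. Ndufaf4 had the smallest change of this complex, with 6.96, 7.18 and 7.31 log2 in C26 pools, against 7.24, 7.15 and 7.14 in control pools. C26 pools stood on both sides of the control pools there. Nubpl, which delivers iron-sulfur clusters to complex I, was the only complex I member of the list with C26 pools above the controls, between 3.67 and 3.97 log2 against 3.21 to 3.66. Its control mean and C26 pool 4 were under background, and the change of 0.39 log2 (95% interval 0.09 to 0.70, limma adjusted p = 0.0568) was not called.

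Complex II, succinate dehydrogenase, has 4 factors, of which 0 fell and 2 were lower at adjusted p. Sdhaf3, which helps Sdhb take up its iron-sulfur clusters, had 5.70, 5.74 and 5.96 log2 in C26 pools, against 6.36, 6.32 and 6.37 in control pools. Sdhaf4, which binds the flavin-carrying Sdha, had 5.30, 5.27 and 5.25 log2 in C26 pools, against 5.80, 5.88 and 5.77 in control pools. Neither gene overlapped between groups, and both changed by −0.55 log2, just outside the fold minimum (limma adjusted p = 0.00184 and 0.000682). Without C26 pool 4, Sdhaf3 passed it at −0.63. Sdhaf1, the other iron-sulfur factor, had 6.67, 6.95 and 7.06 log2 in C26 pools, against 6.90, 6.96 and 6.94 in control pools. Its change was −0.04, and that of Sdhaf2, which attaches the flavin to Sdha, was −0.13 log2 (limma adjusted p = 0.814 and 0.478).

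Complex III, cytochrome bc1, had 6 members, all below 0, of which 1 fell and 4 were lower at adjusted p (median −0.30 log2). Bcs1l, the ATPase that moves the Rieske iron-sulfur protein into the complex, had 6.20, 6.26 and 6.29 log2 in C26 pools, against 6.78, 6.99 and 6.92 in control pools. The groups lay well apart, and the change was −0.65 ± 0.08 log2 (limma adjusted p = 0.000514). Ttc19, which clears Rieske fragments, was at −0.31, Uqcc1, needed for cytochrome b, at −0.26, and Lyrm7, the Rieske chaperone, under background in both groups, at −0.29 log2 (limma adjusted p = 0.0190, 0.0224 and 0.0447). Leaving out single arrays ended each of these 3 calls, Ttc19 without C26 pool 3 or control pool 2, and Uqcc1 and Lyrm7 in 4 of 6 fits each. Uqcc3 had 7.17, 7.05 and 7.36 log2 in C26 pools, against 7.69, 7.28 and 7.56 in control pools. Control pool 2 lay among the C26 values (adjusted p = 0.0888). Uqcc2, which works with Uqcc1, had 6.03, 6.16 and 6.27 log2 in C26 pools, against 6.43, 6.43 and 6.33 in control pools. Its groups lay close without overlapping (limma adjusted p = 0.0687).

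Complex IV, cytochrome c oxidase, gave a wide spread. Of its 16 members 4 fell, 9 were lower and 3 higher at adjusted p, and the median change was −0.34 log2. Taco1, which activates translation of the mitochondrially encoded subunit Cox1, had 6.45, 6.51 and 6.66 log2 in C26 pools, against 7.76, 7.79 and 7.73 in control pools. Every C26 pool was more than 1 log2 unit under every control pool. It fell by 1.22 ± 0.08 log2 to 43.0% of the control level (limma adjusted p = 2.09e-05).

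Coa5, needed for an early step of complex IV assembly, had 7.18, 7.22 and 7.14 log2 in C26 pools, against 8.15, 7.95 and 7.94 in control pools. It fell by 0.83 ± 0.08 log2, to 56.2% of the control level (limma adjusted p = 0.000163). Coa7, a heme-binding protein of the intermembrane space, had 5.86, 6.17 and 6.10 log2 in C26 pools, against 6.66, 6.63 and 6.83 in control pools. C26 pool 1 was lowest, and without it the change of −0.66 ± 0.10 log2 (limma adjusted p = 0.00147) was −0.57, under the fold minimum. Coa6 and Coa3 were lower at −0.47 and −0.49 log2 (limma adjusted p = 0.00605 and 0.00308), with Coa3, which binds newly made Cox1, just outside the minimum. Cox14, a partner of Coa3 on new Cox1, was at −0.36 log2 (limma adjusted p = 0.0201), a call that 4 of the 6 fits without an array ended.

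Copper reaches complex IV through a relay. Cox17 hands it to Sco1 for the copper site of Cox2 and to Cox11 for that of Cox1, and Coa6 works with Sco1. Cox11 had 6.27, 6.27 and 6.10 log2 in C26 pools, against 7.08, 6.84 and 6.72 in control pools. It fell by 0.66 ± 0.11 log2 (limma adjusted p = 0.0019), but without control pool 1, the highest, the change was −0.56, short of the fold minimum. Sco1 was lower at −0.42 log2 (limma adjusted p = 0.0118). Cox17, the shared donor, was at −0.11 log2 and did not pass (limma adjusted p = 0.269), although its pools did not overlap, at 6.96 to 6.98 in C26 and 7.07 to 7.09 in controls. Cox19, another copper-linked protein, had 6.07, 6.14 and 6.10 log2 in C26 pools, against 6.06, 6.13 and 6.11 in control pools. The groups coincided, with a 95% interval of the change between −0.16 and 0.17 log2.

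Heme A, the heme of complex IV, is made by Cox10 and Cox15. Cox10 was at −0.32 log2 (limma adjusted p = 0.0209), a call that 4 of the 6 fits without an array ended, and Cox15 at −0.17 (adjusted p = 0.187). The genes that stood higher at adjusted p were Surf1, which acts in the maturation of Cox1, at 0.35, Cox16, a factor for Cox2, at 0.29, and Coa4 at 0.28 log2 (limma adjusted p = 0.043, 0.0326 and 0.0402). Surf1 lay between 7.47 and 7.89 log2 in C26 pools and between 7.25 and 7.38 in control pools. Cox18, which moves the tail of Cox2 across the inner membrane, was at 0.22 log2 (limma adjusted p = 0.0833). These calls are marginal: Cox16 and Coa4 each lost theirs in 4, and Surf1 in 5, of the 6 fits that left out an array.

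**Figure D2:**
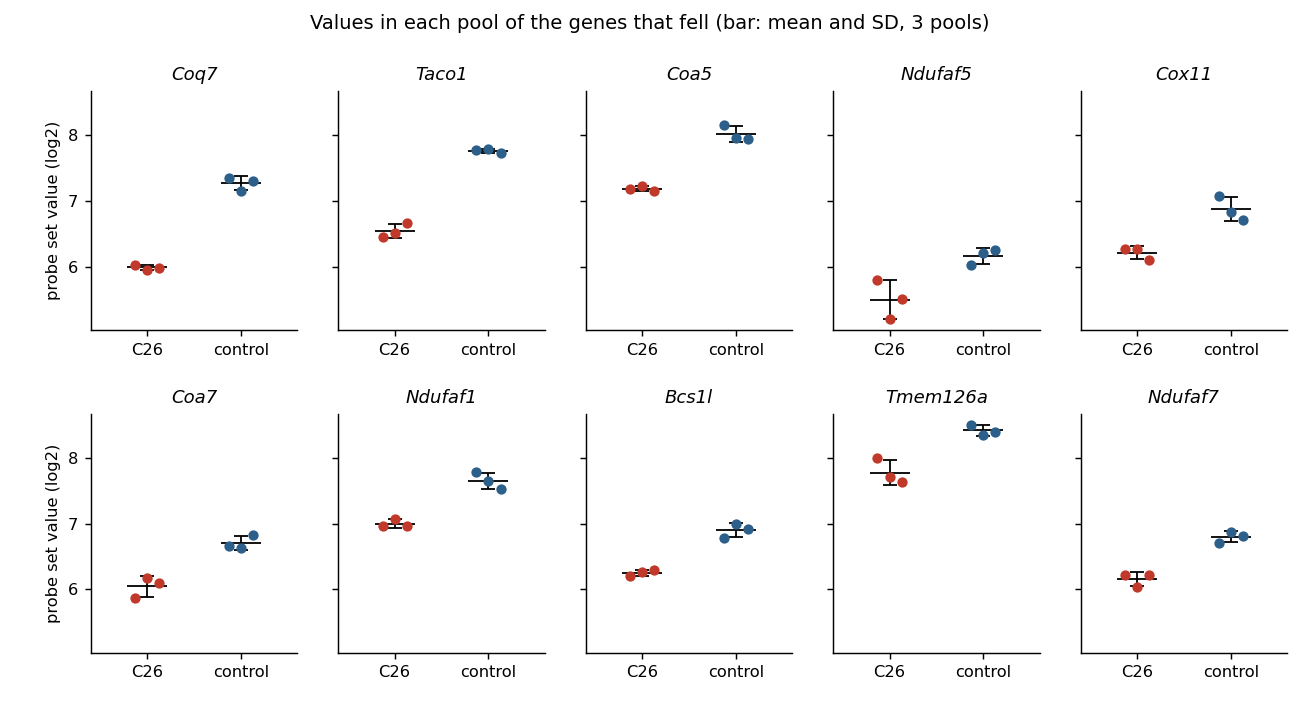
Log2 probe set values (y axis) of the 10 genes that fell, C26 pools in red and control pools in blue, with the mean and SD of 3 pools as black bars. No C26 pool reaches a control pool in any of the 10 genes, and the widest C26 spread is that of Ndufaf5 (SD 0.30).

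The ATP synthase had 3 factors, of which 1 was lower at adjusted p and 0 fell. Tmem70, which helps build the membrane ring of c subunits, had 7.39, 7.33 and 7.35 log2 in C26 pools, against 7.67, 7.73 and 7.62 in control pools. It was lower by 0.32 ± 0.07 log2 (limma adjusted p = 0.0103). Atpaf1, the chaperone of the beta subunit, had 6.77, 7.02 and 6.79 log2 in C26 pools, against 7.26, 7.50 and 6.97 in control pools. Control pool 3 lay below C26 pool 3, and the change of −0.38 did not pass (adjusted p = 0.0688). Atpaf2, the chaperone of the alpha subunit, had 6.88, 6.73 and 6.82 log2 in C26 pools, against 7.08, 7.09 and 6.91 in control pools. Its change was −0.22 (limma adjusted p = 0.0865), and the gap Atpaf1 minus Atpaf2 was 0.05 ± 0.21 log2 in C26 pools and 0.21 ± 0.18 in control pools (SD; exact permutation test, two-sided, p = 0.40, adjusted 0.50).

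Coenzyme Q is made from a ring and a long polyprenyl tail, joined by Coq2 and then modified on the ring by hydroxylases and methyltransferases held in one complex. Its 9 genes had the median change nearest to 0 (−0.17 log2), with 1 that fell, 3 lower and 1 higher at adjusted p. Coq7, the hydroxylase that adds the last hydroxyl group to the ring, changed more than any other member. It had 6.02, 5.96 and 5.99 log2 in C26 pools, against 7.35, 7.15 and 7.30 in control pools. The C26 pools were within 0.1 log2 of each other, and Coq7 fell by 1.28 ± 0.08 log2 (95% interval −1.46 to −1.10), to 41.2% of the control level (limma adjusted p = 1.62e-05). Ranked from the lowest change of all 21212 probe sets, Coq7 stood at place 170.

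The other coenzyme Q genes chosen by the rule had smaller changes. Pdss2, which takes part in making the tail, lies outside the symbol rule. It also fell, by 0.67 ± 0.09 log2 (limma adjusted p = 0.000565). Coq9, the lipid-binding protein that presents the substrate to Coq7, was at −0.27, and the methyltransferase Coq5 at −0.32 log2 (limma adjusted p = 0.0201 and 0.0105), and 3 of the 6 fits without an array ended the call of Coq9. Coq2, Coq3 and Coq6 were at −0.19, −0.17 and −0.10 log2 and did not pass. Coq4 had 6.16, 6.12 and 6.24 log2 in C26 pools, against 6.17, 6.26 and 6.19 in control pools. Those pools overlapped, at a change of −0.03.

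Coq8a and Coq8b encode atypical kinases that support the pathway, and both had their C26 pools above the control pools. Coq8b had 5.84, 5.89 and 5.73 log2 in C26 pools, against 5.61, 5.17 and 5.31 in control pools. It was higher by 0.45 ± 0.12 log2 (limma adjusted p = 0.0182), a call that ended in 4 of 6 fits without an array. Coq8a, known as the form most used in muscle, was at 0.17 log2 (limma adjusted p = 0.127). The gap Coq8a minus Coq8b was 4.51 ± 0.04 log2 in C26 pools and 4.79 ± 0.21 in control pools (SD; exact permutation test, two-sided, p = 0.10, the smallest possible, adjusted 0.30).

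**Figure D3:**
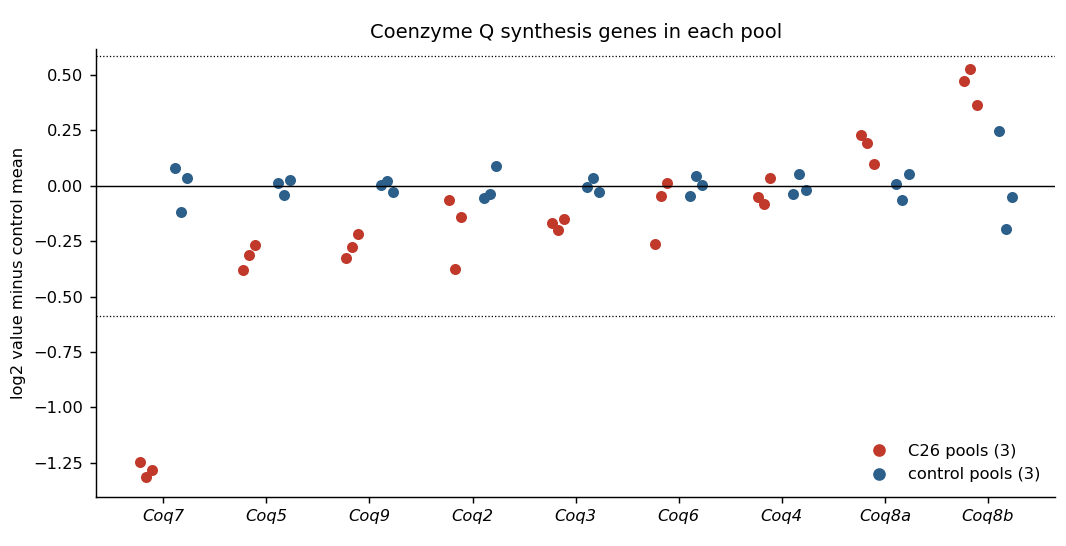
Log2 value of each coenzyme Q gene in each pool after subtracting the gene's control mean (y axis), C26 pools in red and control pools in blue, with dotted lines at 1.5-fold. Coq7 stands alone below the lower line, while Coq8a and Coq8b have all C26 pools above their control pools.

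The genes of the subunits these factors assemble were lower as well. For complex I, 13 of 34 subunit genes fell (38.2%, against 4.95% of all probe sets). At adjusted p 29 were lower (85.3%, against 15.8%). Their median change was −0.48 log2, beside the −0.42 of the complex I assembly genes. The largest changes were in Ndufc2 at −0.80 ± 0.09 and Ndufs1, which carries iron-sulfur clusters, at −0.74 ± 0.07 log2. The complex II subunits had a median of −0.54, with 2 of 4 that fell, those of complex III −0.37, with 2 of 8, those of complex IV −0.35, with 1 of 14, and those of the ATP synthase −0.43 log2, with 4 of 14. Cox7a1, a muscle form of a complex IV subunit, was lowest at −1.01 ± 0.11 log2. In each of the 5 complexes the median of the assembly genes was less far below 0 than that of the subunit genes, a difference that was not tested. For complex IV the 2 medians nearly met, at −0.336 and −0.346 log2. There the share that fell went the other way, 25% of the assembly genes against 7.14% of the subunit genes. The 34 complex I subunit genes stood beside 41 other genes of the chain (subunits and cytochrome c). Of all these, 0 were higher at limma's adjusted p and 0 at an unadjusted p of at most 0.05. Of the 16 complex IV assembly genes 3 were higher at limma's adjusted p. Over all probe sets 14.3% were higher, and 19.9% of those above background. By the methods' t-test 0 members were higher at adjusted p, so these 3 calls were marginal.

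**Figure D4:**
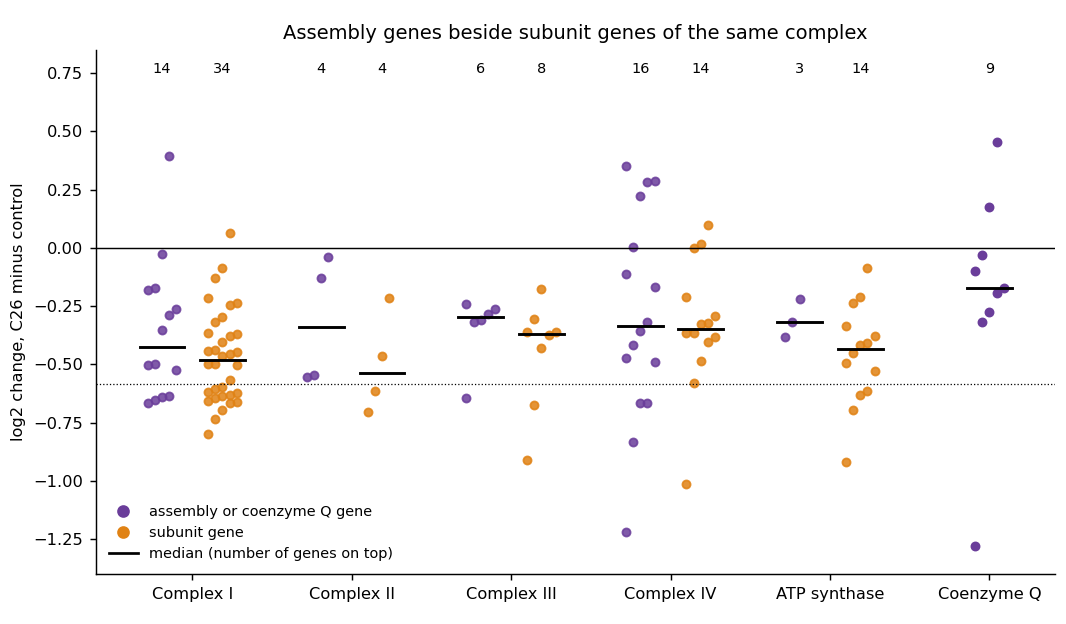
Log2 change (y axis, C26 minus control) of each assembly or coenzyme Q gene in purple and of each subunit gene in orange, by complex, with medians as black lines and gene numbers on top. Complex IV assembly genes spread from −1.22 to 0.35, wider than the complex IV subunit genes (−1.01 to 0.10).

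A further 35 genes with assembly roles fall outside the symbol rule, such as iron-sulfur cluster factors and proteins named for other functions. Of these 5 fell (14.3%, against 4.95% of all probe sets) and 1 rose, beside 5.94% of all probe sets. At adjusted p 17 were lower (48.6%, against 15.8%), and the median change was −0.28 log2. The largest changes were in Cmc2, a complex IV biogenesis factor, at −0.97 ± 0.09, Higd1a at −0.70 ± 0.16, Tmem242, a factor of the ATP synthase, at −0.69 ± 0.07, and Glrx5, an iron-sulfur glutaredoxin, at −0.67 ± 0.10 log2. The gene that rose, named here after its value was seen, was Gfer, the sulfhydryl oxidase of the import path of the intermembrane space. Gfer had 6.83, 7.17 and 7.04 log2 in C26 pools, against 6.53, 6.40 and 6.24 in control pools (0.62 ± 0.11, limma adjusted p = 0.00353).

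Several members share a start region with another gene. In the RefSeq annotation of GRCm38.p6, 44 members had a promoter window, and 14 of these (31.8%) had another measured gene that started within 1000 bases on the opposite strand and ran the other way, beside 1312 of 15057 array genes (8.71%). These partners were looked up after the members' values were seen. In the pairs whose member fell, Coa5, at −0.83, lies 36 bases from Unc50, at 0.28 log2 (limma adjusted p = 0.0443). Ndufaf5 lies 88 bases from Esf1, at 0.21 log2 (adjusted p = 0.216), and Bcs1l 261 bases from Zfp142, at 0.00. Cox11 lies 76 bases from Stxbp4, a syntaxin-binding protein, which fell further than Cox11. Stxbp4 had 5.12, 4.93 and 4.89 log2 in C26 pools, against 6.88, 6.85 and 6.94 in control pools (−1.91 ± 0.09, limma adjusted p = 3.53e-06).

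The widest gap between changes of opposite sign was at Sco1, whose start lies 52 bases from that of Adprm, a phosphohydrolase. Adprm had 5.96, 5.91 and 5.99 log2 in C26 pools, against 4.56, 5.15 and 5.13 in control pools. It rose by 1.01 ± 0.15 log2 (limma adjusted p = 0.00129), while Sco1 was at −0.42. Atpaf2, at −0.22, lies 111 bases from Gid4, the substrate receptor of a ubiquitin ligase, which fell by 1.03 ± 0.08 log2 (adjusted p = 4.74e-05). Over the 14 pairs, 1 partner rose, 2 fell and 11 were not called. The stretches between starts of 4 pairs are shown because they place both genes on one short piece of DNA. They are read on the strand of the assembly gene, 5′ to 3′, from RefSeq (GRCm38.p6). Capitals mark the bases between the 2 starts, with 15 bases on either side in lower case.
Coa5 at chr1:37430089-37430153 (minus strand): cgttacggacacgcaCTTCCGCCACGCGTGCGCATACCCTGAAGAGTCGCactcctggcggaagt
Sco1 at chr11:67052604-67052684 (plus strand): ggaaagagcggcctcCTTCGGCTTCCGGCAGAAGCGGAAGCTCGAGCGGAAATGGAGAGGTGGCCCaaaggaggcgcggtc
Cox11 at chr11:90638094-90638198 (plus strand): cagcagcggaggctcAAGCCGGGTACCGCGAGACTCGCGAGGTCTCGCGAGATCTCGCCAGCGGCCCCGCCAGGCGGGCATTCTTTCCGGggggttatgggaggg
Ndufaf5 at chr2:140170544-140170660 (plus strand): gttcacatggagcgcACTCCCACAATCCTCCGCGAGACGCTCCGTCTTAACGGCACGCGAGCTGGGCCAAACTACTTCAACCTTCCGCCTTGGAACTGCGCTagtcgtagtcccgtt
The capital runs hold between 59.8% (Ndufaf5) and 70.7% (Cox11) C and G.

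**Figure D5:**
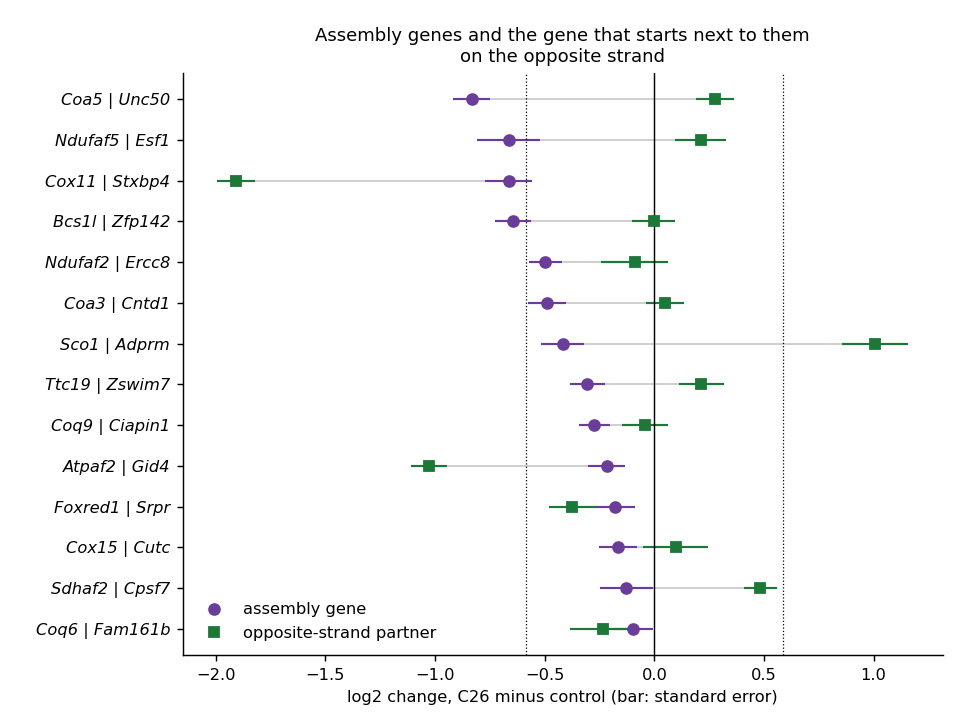
Log2 change (x axis, C26 minus control; bars are standard errors) of the 14 assembly genes with a neighbour starting on the opposite strand, circles, and of that neighbour, squares, with dotted lines at 1.5-fold. All 14 circles lie below 0, while the squares run from −1.91 (Stxbp4) to 1.01 (Adprm).

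The windows, from 250 bases before to 50 after the start, were searched on both strands for short exact words bound by 5 factors tied to mitochondrial or atrophy genes. The word CGCATGCG of NRF1 was in 3 of 44 member genes (6.82%, against 2.99% of array genes), CCGGAAGTG of GABP in 3 (6.82%, against 3.25%) and AAGATGGCG of YY1 in 4 (9.09%, against 2.32%). GTAAACA, a core of FoxO sites, was in 2 (4.55%, against 3.53%), and TCAAGGTCA of ERR in 0 (0.332% of array genes). No letters of one word overlap another in these windows. A match says only that the letters are there. Of the 10 genes that fell, Ndufaf1 held the FoxO word and Ndufaf5, after its start, the NRF1 word, and the other 8 held none.

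The 100 bases before the start are given for the genes with the largest changes, Coq7 and Taco1, and for 3 members with a word, in capitals: FoxO in Ndufaf1 (on the opposite strand, so read as TGTTTAC), NRF1 in Ttc19 and GABP in Cox10.
Coq7 at chr7:118533357-118533456 (minus strand): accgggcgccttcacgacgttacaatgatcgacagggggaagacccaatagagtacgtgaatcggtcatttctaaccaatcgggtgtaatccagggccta
Taco1 at chr11:106065991-106066090 (plus strand): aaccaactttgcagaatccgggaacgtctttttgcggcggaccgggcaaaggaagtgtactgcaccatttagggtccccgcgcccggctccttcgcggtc
Ndufaf1 at chr2:119662835-119662934 (minus strand): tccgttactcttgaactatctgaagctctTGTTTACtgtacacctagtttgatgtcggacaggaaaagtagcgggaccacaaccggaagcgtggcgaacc
Ttc19 at chr11:62281373-62281472 (plus strand): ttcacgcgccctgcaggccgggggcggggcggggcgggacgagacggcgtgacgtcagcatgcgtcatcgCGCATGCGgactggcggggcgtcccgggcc
Cox10 at chr11:64079473-64079572 (minus strand): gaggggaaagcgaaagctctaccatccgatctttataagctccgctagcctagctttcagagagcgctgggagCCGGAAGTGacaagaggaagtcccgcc
In Coq7 and Taco1 the whole run is in lower case, since none of the words was found. The word in Ttc19 starts 30 bases before the gene, and that gene changed by −0.31 log2, while in Ndufaf1, which fell by 0.65 log2, the FoxO word starts 71 bases before. In Cox10, at −0.32 log2, the GABP word starts 27 bases before.

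The arrays of a group were alike (Pearson r 0.994 to 0.996 within groups and 0.976 to 0.981 between), and no array stood apart. All 12 skeletal muscle markers were above background, and 1, Mylpf, fell. Of these 12, 11 were below 0, Mylpf, Pvalb and Mb were lower at adjusted p, and Des was higher (0.29 log2, limma adjusted p = 0.0219), with a summed linear level of 48316 to 50723 in C26 pools and 53581 to 55475 in control pools. Markers of other cells moved between the groups beside the assembly genes. For the counts that follow, 4.95% of all probe sets fell and 5.94% rose. Of 12 fibroblast and tendon markers 6 fell, among them Col1a1 and Tnmd, with a summed level of 4825 to 5466 in C26 pools and 9497 to 10736 in control pools. In the same list Pdgfra (0.50 log2) and Thbs4 (0.43) were higher (limma adjusted p = 0.00135 and 0.00415), and Dcn was at 0.03. Of 13 macrophage markers 6 rose (1492 to 1553 in C26 and 932 to 1047 in controls), among them Itgam, Cd163 and Mrc1. Adgre1 (0.00 log2), Csf1r (0.02), Cx3cr1 (−0.11), Fcgr1 (−0.11) and Aif1 (−0.20, under background) of that list did not pass. Of 12 neutrophil markers 8 rose (1259 to 1757 in C26 and 137 to 147 in controls), with 4 of the 12 under background in both groups. Lcn2 made up most of the neutrophil sum, and without it, a sum added after the values were seen, the other 11 came to 247 to 296 in C26 pools and 106 to 115 in control pools. Of 8 slow fibre markers 1, Myl3, fell (5163 to 5246 in C26 and 5934 to 6197 in controls). At adjusted p alone 4 of them, Myl3, Myl2, Tnnt1 and Tnni1, were lower (50%, against 15.8% of all probe sets) and 0 higher. The median change of these 8 was −0.21 log2, with 7 below 0. None of 7 lymphocyte markers passed, 5 of them under background, and 1 was lower at unadjusted p. The summed level of the 52 assembly and coenzyme Q genes was 8009 to 8340 in C26 pools and 9584 to 9911 in control pools. The part of these cell types in the results was not tested.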

How the data were processed

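RNA of pooled gastrocnemius and plantaris muscle (3 C26 and 3 control pools) was hybridized to 6 Affymetrix Mouse Gene 1.0 ST arrays. The deposited values are on the log2 scale. Per the study's methods the authors made them with RMA (background correction, normalization over arrays and summarization) under the Brainarray custom CDF version 13, with 1 probe set per Entrez gene. The number of arrays limits the precision. Probe sets were named through the platform annotation and current RefSeq symbols, and 2420 of 21212 had no name. limma 3.58.1 (R 4.3.3; lmFit and eBayes, two-sided, no covariate) was fitted to all probe sets, with Benjamini-Hochberg adjustment over all of them. In simulated data the script recovered the larger planted changes. No minimum was set for its calls of smaller ones, the size of most changes here. The background level, 3.82 log2, was the 95th percentile of 1259 olfactory and vomeronasal receptor probe sets. The labels do not say whether the replicate numbers pair the arrays, and the main fit used no pairing. Deviations of same-numbered arrays had a correlation of −0.06 for numbers 1 and 3.

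The members and gene lists were chosen with earlier results of these data known. Every member may be named. Values per pool are given for each member past both thresholds and, per complex, for the 2 largest changes and the smallest. The other lists name up to 4 genes with the largest changes. Exceptions are Tmem186, Pdss2 and Gfer, and the cell type markers, which were not picked by size alone. Alternatives were the methods' t-test, unequal variances, limma's trend and robust settings, 3 scalings, 2 filters on dim probe sets, a 2-fold minimum, the replicate block, platform symbols and leaving out each array. Sequences and start sites are from RefSeq GRCm38.p6, and 3 further names were not analysed here.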

Additional observations from a re-analysis of the deposited data

How the results depend on the processing

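Of 933 single-gene alternatives computed for the 52 members, 22 ended a call, 5 made one and 0 reversed the sign of a called change. Only the 10 genes that fell, with 18 alternatives each, had a call to lose. The 933 are therefore not the base for the 22. Settings that altered only the test, the filter or the fold minimum left each log2 change as it was and could not reverse it. Members called in neither fit were not counted as reversed, and Ndufaf4, Sdhaf1, Coq4 and Cox19 changed sign under some settings. The count of members that fell, 10, was 6 with unequal variances, 2 with a 2-fold minimum (Coq7 and Taco1) and 8 to 10 with 1 array left out. Coq7 and Taco1 passed under all alternatives, with adjusted p between 1.94e-06 and 0.0247 for Coq7 and 2.2e-06 and 0.0293 for Taco1. With arrays centred on their medians, which shifts C26 against control by 0.065 log2 and leaves 7 genes that fell, Bcs1l (−0.58), Tmem126a (−0.57) and Ndufaf7 (−0.57) dropped under the fold minimum. Ndufaf5 also missed by the methods' t-test (adjusted p = 0.0817), and by the block on replicate numbers (0.0601), and Ndufaf5, Cox11, Coa7 and Tmem126a missed with unequal variances.

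The count lower at adjusted p alone, 29, was 16 with unequal variances, 18 with the replicate block and 21 to 27 with 1 array left out. The 4 higher became 0 by the methods' t-test, 0 with unequal variances, 0 with the replicate block, 7 with centred arrays and 0 to 4 with 1 array left out: 0 without control pool 3 or C26 pool 3, 1 without control pool 2 and 2 without C26 pool 4. None of the 4 kept its call in all 6 of these fits, while 21 of the 29 lower genes did. The median change, −0.30 log2, was −0.23 with centred arrays and −0.35 with quantile normalization. With the replicate block 11 members fell. Control number 2 and C26 number 4 have no counterpart, so the block fit takes each change from the arrays numbered 1 and 3 alone. The labels do not say whether the shared numbers mark a pairing or a batch. The block values were therefore not read as a weaker effect, and the cause of the losses was not tested. Nubpl and Lyrm7 lie near or under background, where the arrays measure changes poorly.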

Other observations

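Genes of the mitochondrial ribosome and of protein import, which supply the organelle that the assembly factors work in, had a median change close to that of all probe sets. Of 36 such genes 2 fell, Mrpl19 at −0.81 ± 0.08 and Mrpl12 at −0.65 ± 0.09 log2 (SE, n = 3 pools each; limma adjusted p = 0.000134 and 0.000983), 9 were lower and 4 higher at adjusted p, and the median change was −0.07, beside −0.05 over all probe sets. The 2 that fell are 5.56% of the list, against 4.95% of all probe sets, the 9 lower are 25%, against 15.8%, and the 4 higher compare with 14.3% of all probe sets. Timm10, a small chaperone of the intermembrane space, was higher at 0.56 ± 0.13, and Timm22, the pore for carrier proteins, lower at −0.55 ± 0.10 log2 (limma adjusted p = 0.0116 and 0.00373). The difference between this list and the assembly genes was not tested.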
